A study of Canis lupus familiaris with 77 samples.

Results

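The miR-148 and miR-152 family consists here of 3 mature dog miRNAs, cfa-miR-148a, cfa-miR-148b and cfa-miR-152, which were chosen by name from the 650 miRNAs detected by miR-seq. The libraries came from 5 untreated male Marshall beagle dogs, aged 10 months, whose organs were perfused with phosphate buffered saline before collection. Of the 77 labelled samples, 76 had values and covered 16 tissues. Liver, heart, testis, lung, skeletal muscle, kidney, thymus, brain, duodenum, jejunum, ileum, pancreas, plasma and bone marrow had 5 samples each, colon had 4 and sciatic nerve had 2. The nerve samples were described both as a pool of all dogs that was then split and as individual samples beside a pool, so whether the 2 used here come from separate dogs is not known. Bone marrow and plasma were each extracted by another procedure than the solid tissues, so for both, tissue and extraction cannot be told apart. The paper also reports low RNA integrity in plasma, bone marrow and a subset of kidney samples, with a lower share of mapped reads in bone marrow. The purpose of the atlas was to find miRNAs whose level marks a single organ.

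MicroRNAs guide a silencing complex to messenger RNAs by pairing through the seed, a short stretch near their 5′ end. The 3 members are known to share a seed and are therefore predicted to bind many of the same targets. Reported targets include DNMT1, the maintenance DNA methyltransferase, and ABCA1, the transporter that exports cholesterol from cells. The precursor genes lie apart in the genome. In the RefSeq annotation of the UU_Cfam_GSD_1.0 dog assembly, MIR148B lies within the span of COPZ1 and MIR152 within that of COPZ2. No gene in that annotation spans MIR148A. COPZ1 and COPZ2 encode related subunits of the coatomer coat of transport vesicles.

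Libraries held from 157871 to 7896424 reads on miRNAs, and those of bone marrow from 162310 to 239023. Values are given as RPM, the reads of a miRNA scaled to 1000000 miRNA reads in the library. All 3 members had at least 1 read in all 76 libraries, and 4 of the 228 member values rested on 3 reads or fewer. The tissue labels were checked with miRNAs known to mark a tissue or cell type. Each library was compared only with the highest library of the same label. Some lists were also high elsewhere, as the epithelial list used for kidney (median 47961 RPM) was in liver (186166 RPM). An exchanged library could pass the check there. In 8 of 74 libraries checked, in 4 tissues, the summed level of the tissue's list was under 10% of that in the tissue's highest library. Duodenum samples 3 and 4 held 24507 and 5691 RPM of epithelial miRNAs, against 83920 to 448275 in the other 3. Skeletal muscle sample 4 held 694 RPM of striated muscle miRNAs, against 38274 to 112732 in the other 4. Thymus samples 2, 3 and 5 held 291 to 546 RPM of leukocyte miRNAs, against 11695 and 16606 in the other 2. Testis samples 2 and 3 held 4795 and 612 RPM of germ cell miRNAs, against 51412 to 97634 in the other 3. The order of the tissues, the tests against all other samples and the tissue pairs that these 8 libraries touch were also computed without them, and their values are given below where they changed. The 2 sciatic nerve samples, for which no list was set, also differed in miRNAs of other tissues. Sample 1 held 1917 RPM of cfa-miR-133a of striated muscle, 1303 RPM of cfa-miR-375 and 104 RPM of cfa-miR-122, and sample 2 held 105, 35.2 and 13.7 RPM. The samples are pieces of bulk tissue, in which fewer cells of a type and less RNA per cell cannot be told apart.

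The 3 members differed widely in level, and with all libraries each was highest in another tissue. The tissue median of cfa-miR-148a was highest in pancreas, at 406344 RPM, and lowest in heart, at 2272 RPM, a 179-fold range. The tissue median of cfa-miR-148b was highest in bone marrow, at 1104 RPM, and lowest in plasma, at 88.1 RPM, a 12.5-fold range. The tissue median of cfa-miR-152 was highest in jejunum, at 268 RPM, and lowest in pancreas, at 7.01 RPM, a 38.2-fold range. The tissue with the highest median of cfa-miR-148a was thus the one with the lowest median of cfa-miR-152. For cfa-miR-152, samples of brain and heart overlapped with those of pancreas. The highest tissue of both minor members rested on duodenum samples 3 and 4. Without the 8 libraries the duodenum median was the highest for cfa-miR-148b, at 1120 RPM against 1104 RPM in bone marrow, and for cfa-miR-152, at 293 RPM against 268 RPM in jejunum. The pancreas remained highest in cfa-miR-148a and lowest in cfa-miR-152. Among the 266 miRNAs with a median above 100 RPM in at least 1 tissue, 49.6% had a smaller range than cfa-miR-148a, 12.8% a smaller range than cfa-miR-148b and 32.0% a smaller range than cfa-miR-152. A tissue median above 100 RPM was reached by cfa-miR-148a in all 16 tissues, by cfa-miR-148b in 15 and by cfa-miR-152 in 4.

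**Figure D1:**
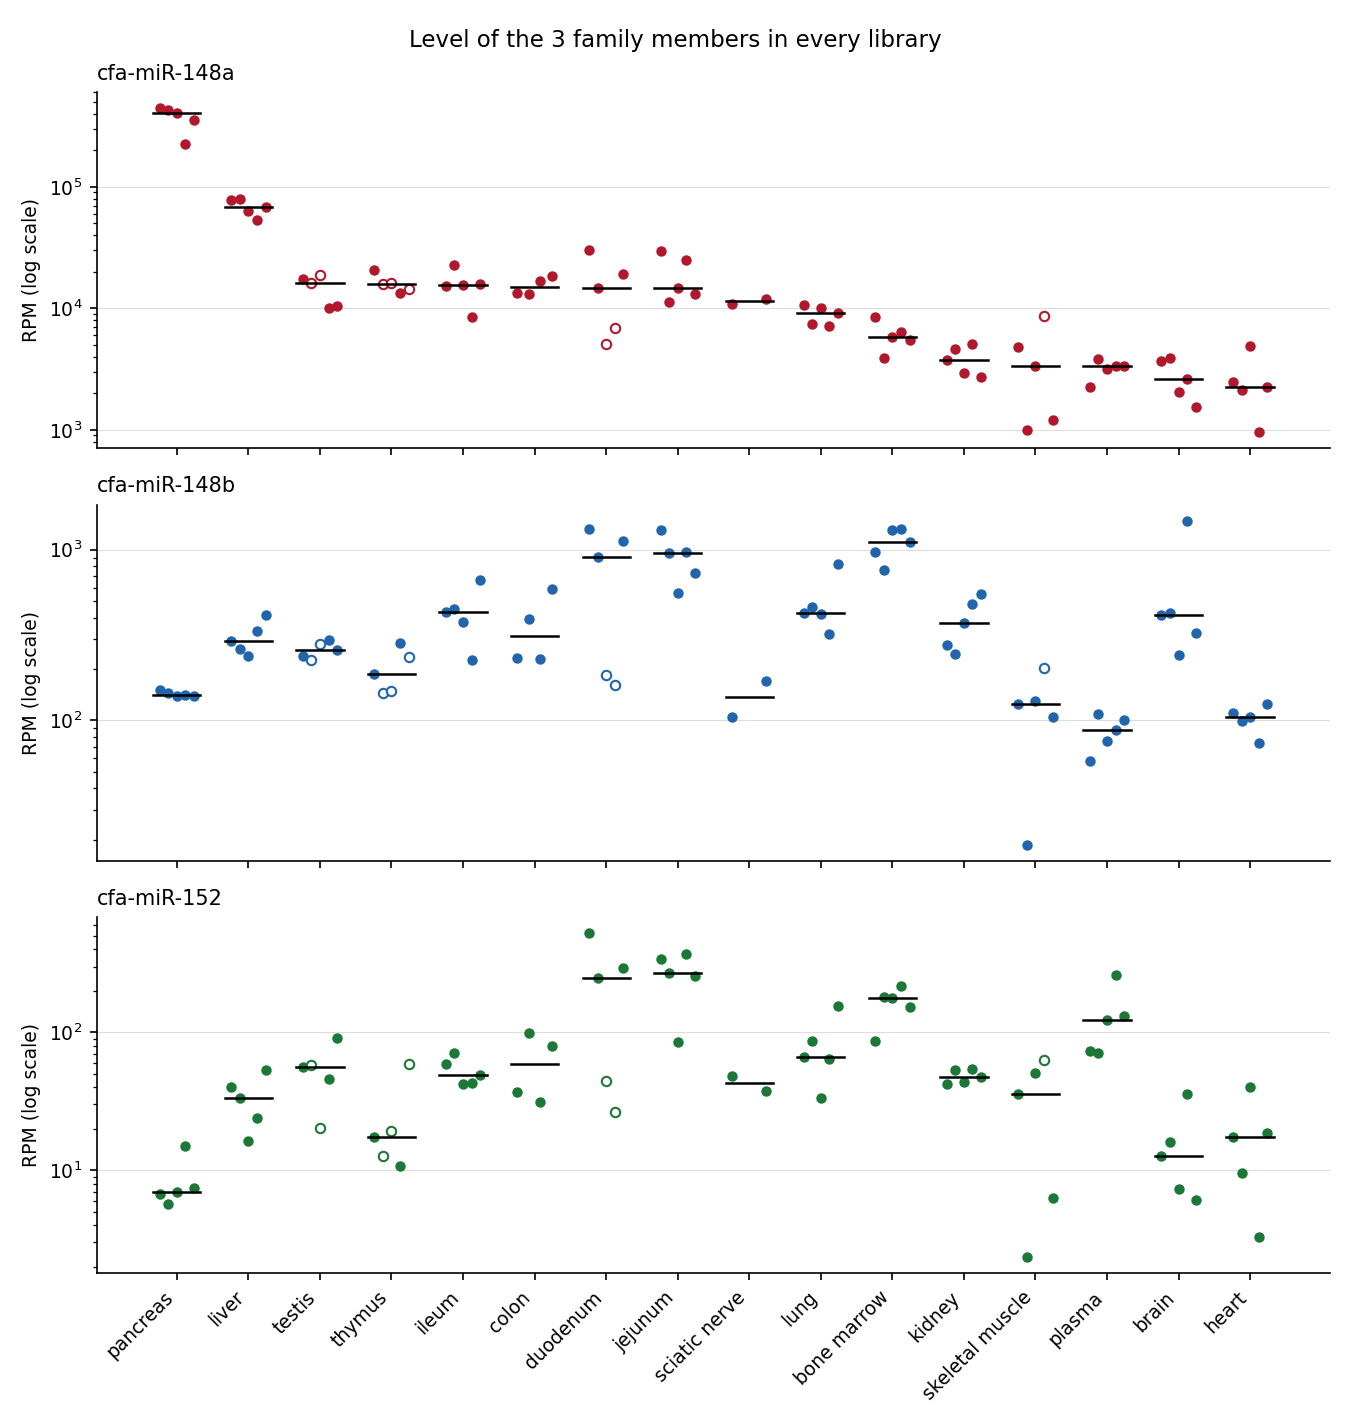
Level in RPM on a log axis of cfa-miR-148a, cfa-miR-148b and cfa-miR-152 in each of 76 libraries, with tissues ordered by their median of cfa-miR-148a. Each point is a library, lines are tissue medians, and open points are the 8 libraries low in the miRNAs of their labelled tissue. The pancreas holds the highest values of cfa-miR-148a, from 226890 to 445204 RPM, and the lowest median of cfa-miR-152, at 7.01 RPM.

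In the pancreas, cfa-miR-148a was the most abundant miRNA by tissue median. Its level was 445204, 431198, 406344, 226890 and 355270 RPM in the 5 samples, or 37.3% ± 8.86 (SD, n = 5) of miRNA reads. Even the lowest of these, sample 4, exceeded the highest sample outside the pancreas, a liver sample with 79159 RPM. The mean was 26.9 times that of the other 71 samples (372981 against 13861 RPM; exact rank-sum test, adjusted p = 5.41e-06), where 7.69% of the 650 miRNAs were called higher. The raw p of 1.08e-07 is the smallest that 5 against 71 samples can give. The median was 5.13 times the highest other sample. The miRNA therefore passed the fold and test criteria of a tissue enriched miRNA, which asks for a mean fold above 5. It also passed the ratio of 5 to the highest other sample that is part of the criteria for a highly tissue enriched miRNA, although it was detected in all 16 tissues. That ratio lay between 4.81 and 5.29 when single samples were left out, and was under 5 without pancreas sample 1, 2 or 3.

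The liver had the second highest level of cfa-miR-148a. Its 5 samples held 78400, 79159, 63213, 53594 and 68052 RPM, so that its samples overlapped neither with the pancreas nor with any lower tissue. The mean was 1.94 times that of all other samples, the pancreas included (exact rank-sum test, adjusted p = 0.00572; 5.38% of miRNAs called higher). With the pancreas left out, the liver difference was 2.82 on the log2 scale (adjusted p = 9.98e-06, same test). Below the liver, 6 tissues had nearly the same median of cfa-miR-148a, from 16104 RPM in testis through thymus, ileum, colon and duodenum to 14709 RPM in jejunum. This closeness rested on the libraries low in their markers, without which the median was 19169 RPM in duodenum, 17171 RPM in thymus and 10457 RPM in testis, below the sciatic nerve at 11406 RPM.

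At the other end, cfa-miR-148a was called lower in brain, heart and plasma. Brain samples held 3703, 3936, 2062, 2597 and 1538 RPM, heart samples 2482, 2124, 4922, 961 and 2272 RPM, and plasma samples 2231, 3838, 3161, 3333 and 3338 RPM. All 15 values lay below the median of the samples outside their tissue. The mean of the other samples was 14.4 times that of brain, 15.7 times that of heart and 12.5 times that of plasma, and those means include the pancreas. By exact rank-sum test the adjusted p was 0.00612 in brain (5.38% of miRNAs called lower), 0.0141 in heart (4.92% called lower) and 0.0240 in plasma (21.4% called lower). In the plasma samples, cfa-miR-486 alone took up 42.3% to 76.1% of reads, which lowers the RPM values of all other miRNAs there. With library sizes scaled by TMM, the plasma call was not kept (adjusted p = 0.190). Leaving out 1 tissue sample other than the highest in heart, or other than sample 2 in plasma, also ended the call there, with adjusted p up to 0.0684 in heart and 0.0716 in plasma.

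The order of the tissues was tested between neighbours. For cfa-miR-148a, 4 of 15 steps had an unadjusted exact permutation p under 0.05, and none passed after adjustment over the 15 steps (smallest adjusted p = 0.0595). Samples did not overlap at 3 of the steps, from pancreas to liver, from liver to testis and from sciatic nerve to lung. The first 2 of these had an exact permutation p of 0.00794, the smallest that 5 against 5 samples allow. Over 15 steps, 2 p-values of this size cannot pass adjustment without further low ones, so the adjusted result cannot decide these 2 steps. The step from sciatic nerve to lung had an exact permutation p of 0.0952, and 2 against 5 samples cannot go lower. For cfa-miR-148b 1 step of 15, from thymus to pancreas, had an unadjusted p under 0.05 (exact permutation p = 0.0317, adjusted p = 0.476), and for cfa-miR-152 none did (smallest p = 0.238). For both, samples of neighbouring tissues overlapped at every step, so their order of medians does not separate adjacent tissues beyond the spread between samples.

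For cfa-miR-148b, bone marrow and jejunum were called higher than the other samples. Bone marrow held 973, 761, 1297, 1317 and 1104 RPM, a mean 3.04 times that of the other samples (1091 against 358 RPM; exact rank-sum test, adjusted p = 0.00158; 10.8% of miRNAs called higher). Jejunum held 1302, 954, 559, 966 and 734 RPM, a mean 2.43 times that of the other samples (adjusted p = 0.0418, same exact test; 4.0% called higher). All 10 of these samples lay above the median of the samples outside their tissue, and both tissues overlapped with single samples of other tissues, the highest being a brain sample with 1477 RPM. The jejunum call was lost when any of its 5 samples was left out (adjusted p from 0.0729 to 0.130) and without the 8 libraries named above (adjusted p = 0.0648).

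Lower levels of cfa-miR-148b were called in heart, plasma and skeletal muscle. Heart held 110, 99.9, 105, 73.4 and 125 RPM (adjusted p = 0.0104). Plasma held 58.2, 109, 75.7, 88.1 and 101 RPM (adjusted p = 3.15e-04). Skeletal muscle held 124, 18.8, 130, 204 and 105 RPM (adjusted p = 0.0372, exact rank-sum test in all 3 tissues; 11.4% of miRNAs called lower in skeletal muscle). The mean of the other samples was 4.17 times that of heart, 4.96 times that of plasma and 3.67 times that of skeletal muscle. The plasma values of cfa-miR-148b are also lowered by the share of cfa-miR-486 given above. The highest skeletal muscle value came from sample 4, which was low in striated muscle miRNAs, and the lowest, from sample 2, rested on 8 reads. Without the 8 libraries the skeletal muscle difference was -2.26 on the log2 scale (adjusted p = 0.0386). With TMM scaling it was not called (adjusted p = 0.297), nor without skeletal muscle sample 1, 2, 3 or 5 (adjusted p up to 0.143).

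In the pancreas, cfa-miR-148b held 151, 146, 140, 141 and 139 RPM, the narrowest spread of the family in any tissue (coefficient of variation 3.4%), and was not called (adjusted p = 0.162).

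For cfa-miR-152, jejunum, bone marrow and plasma were called higher. Jejunum held 341, 268, 85.7, 369 and 255 RPM, a mean 3.92 times that of the other samples (264 against 67.3 RPM; exact rank-sum test, adjusted p = 0.00939). Bone marrow held 86.3, 180, 178, 217 and 152 RPM, 2.19 times the others (adjusted p = 0.0192, same test). Plasma held 72.8, 70.8, 123, 259 and 131 RPM, 1.72 times the others (adjusted p = 0.0471; 12.0% of miRNAs called higher). The plasma call was the least stable of the family. It was lost in 19 of the 76 fits that left out 1 sample, with adjusted p up to 0.144, and without the 8 libraries (adjusted p = 0.0767). By edgeR across all tissues, on counts scaled by TMM, plasma was higher by 2.25 on the log2 scale (adjusted p = 3.06e-10). That value is set against the mean log level of the other tissues, so it is another measure than the 1.72-fold of mean RPM. The jejunum call was lost without jejunum sample 1, 2, 4 or 5 (adjusted p up to 0.0746), and the bone marrow call without bone marrow sample 2, 3, 4 or 5 (adjusted p up to 0.0578) and under TMM scaling (adjusted p = 0.0976).

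The lowest levels of cfa-miR-152 were in pancreas and brain. Pancreas samples held 6.71, 5.67, 7.01, 15.1 and 7.41 RPM, and the mean of the other samples was 10.2 times that of pancreas (85.2 against 8.38 RPM; exact rank-sum test, adjusted p = 0.00364; 6.31% of miRNAs called lower). These values rested on 5 to 22 reads. Brain samples held 12.7, 16.2, 7.37, 35.9 and 6.08 RPM, and the mean of the other samples was 5.41 times that of brain (adjusted p = 0.0151, same exact test). The brain call was lost without brain sample 5 (adjusted p = 0.0596). Since cfa-miR-148a took up 37.3% of pancreas reads, the other RPM values of this tissue are lowered by its share. Computed over the reads without cfa-miR-148a, cfa-miR-152 stood at 13.0 ± 3.75 RPM (SD, n = 5) in pancreas and 35.9 ± 15.5 RPM in liver, and cfa-miR-148b at 232 ± 35.0 RPM in pancreas and 331 ± 74.9 RPM in liver. Over the same reads, brain held 15.7 ± 12.1 RPM of cfa-miR-152 and heart 17.9 ± 14.2 RPM. Samples of both overlapped with those of pancreas, which ran from 9.97 to 19.5 RPM.

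The make-up of the family was compared within libraries, which does not depend on the total of a library. In all 76 libraries cfa-miR-148a was the most abundant member. It made up 99.96% ± 0.014 (SD, n = 5) of family reads in pancreas and 99.5% ± 0.154 in liver, and least in bone marrow, 82.3% ± 3.76, and brain, 82.8% ± 11.4. In these last tissues cfa-miR-148b held most of the rest, with 15.3% ± 2.98 and 16.7% ± 11.2 of family reads. The brain mean was raised by sample 4, in which cfa-miR-148b reached 35.9% of family reads. The median ratio of cfa-miR-148a to cfa-miR-148b reads was 2907 in pancreas, 266 in liver, 4.98 in bone marrow and 8.53 in brain.

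Plasma had another order of the minor members. There cfa-miR-152 made up 3.85% ± 1.95 and cfa-miR-148b 2.53% ± 0.237 of family reads, and cfa-miR-152 exceeded cfa-miR-148b in 4 of 5 samples. In all other tissues cfa-miR-148b exceeded cfa-miR-152 in every library. The median ratio of cfa-miR-148b to cfa-miR-152 was 0.768 in plasma, 3.35 in sciatic nerve, the next lowest, and 32.8 in brain, the highest. This difference was not tested.

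**Figure D2:**
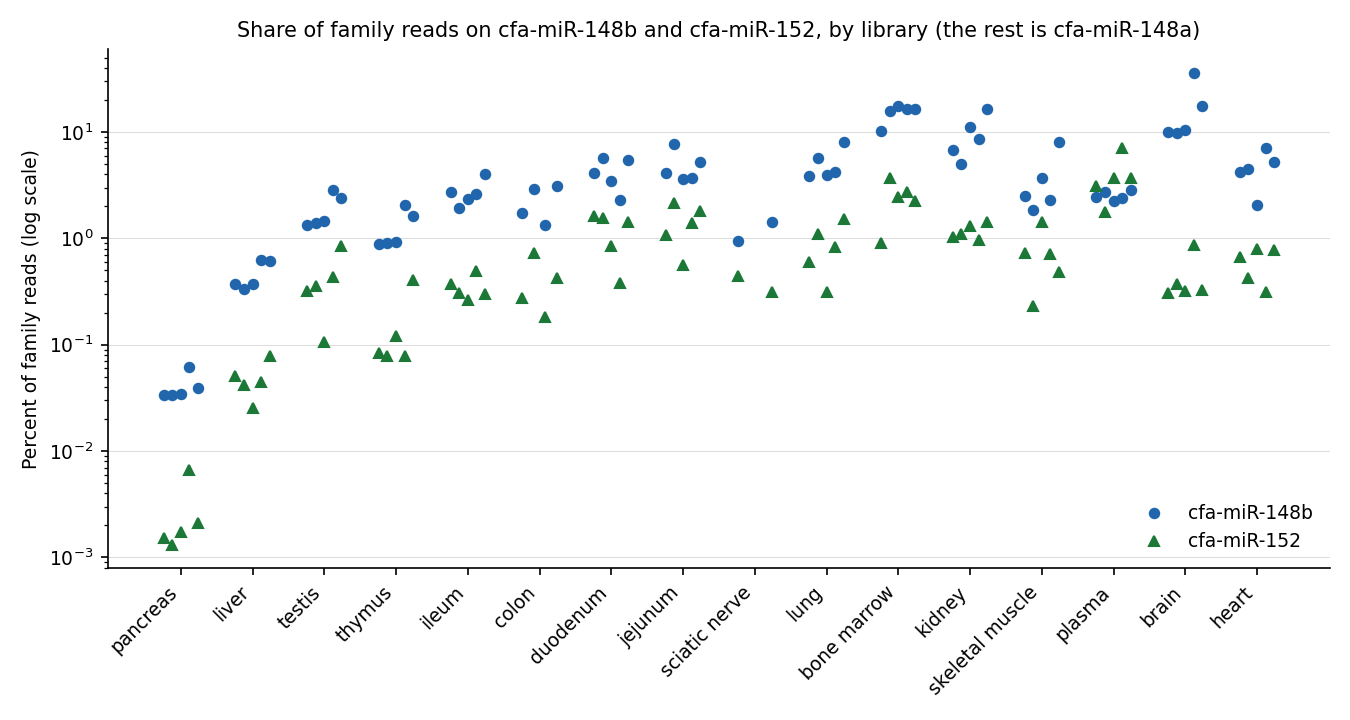
Percent of family reads, on a log axis, that fell on cfa-miR-148b (circles) and cfa-miR-152 (triangles) in each library, with tissues in the order of their median of cfa-miR-148a. Both shares are lowest in pancreas and liver, and plasma is the tissue where the triangles lie above the circles in 4 of 5 libraries.

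Pairs of tissues were compared with edgeR on counts with TMM scaling, in a fit over all 16 tissues and 480 miRNAs. Of 10 pairs, 4 were called for cfa-miR-148a, 5 for cfa-miR-148b and 5 for cfa-miR-152. Between pancreas and liver, cfa-miR-148a was higher in pancreas by 2.58 ± 0.33 (SE) on the log2 scale (edgeR, adjusted p = 1.14e-09), where 17.1% of miRNAs were called higher. The other members went the opposite way, with a log2 difference of -0.97 ± 0.37 for cfa-miR-148b (adjusted p = 0.0322) and -1.96 ± 0.52 for cfa-miR-152 (adjusted p = 0.00155), where 19.0% were called lower. The call of cfa-miR-148b was lost with DESeq2 (adjusted p = 0.564) and without pancreas sample 4, pancreas sample 5 or liver sample 5 (adjusted p up to 0.0673).

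Against the duodenum, a neighbouring digestive organ, the pancreas difference was 4.78 ± 0.36 for cfa-miR-148a (adjusted p = 8.08e-18; 12.7% of miRNAs called higher), -2.21 ± 0.38 for cfa-miR-148b (adjusted p = 3.60e-06) and -4.57 ± 0.56 for cfa-miR-152 (adjusted p = 6.51e-10; 22.9% called lower), all on the log2 scale by edgeR. Without the 8 libraries low in the miRNAs of their tissue these were 4.66, -2.52 and -4.97. Acinar miRNAs summed to at most 9.03 RPM in the duodenum samples, against 11952 to 17110 RPM in pancreas.

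Along the intestine, the jejunum stood above the ileum for both minor members. The log2 difference of jejunum and ileum was 1.28 ± 0.37 for cfa-miR-148b (edgeR, adjusted p = 0.0297) and 2.44 ± 0.50 for cfa-miR-152 (adjusted p = 9.33e-04), in a pair where only 2.29% of miRNAs were called higher in jejunum. The ileum samples held 58.8, 70.8, 42.0, 43.2 and 49.4 RPM of cfa-miR-152, all below the lowest jejunum sample, with 85.7 RPM. The jejunum and ileum did not differ detectably in cfa-miR-148a (0.38, 95% interval -0.23 to 0.98, adjusted p = 0.542). The jejunum call of cfa-miR-148b was lost without jejunum sample 1 or 2 or ileum sample 3 or 4 (adjusted p up to 0.105) and with library size scaling alone (adjusted p = 0.161). Between ileum and colon no member was called, and the differences were -0.18 (95% interval -0.82 to 0.46) for cfa-miR-148a, 0.07 (-0.70 to 0.84) for cfa-miR-148b and -0.34 (-1.34 to 0.66) for cfa-miR-152.

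The duodenum samples split for all 3 members. Samples 1, 2 and 5 held 30308, 14804 and 19169 RPM of cfa-miR-148a, 1330, 907 and 1120 RPM of cfa-miR-148b, and 522, 248 and 293 RPM of cfa-miR-152. Samples 3 and 4 held 5056 and 6845, 185 and 162, and 44.7 and 26.4 RPM of the same miRNAs, and lay below the other 3 without overlap in each case. The same samples held 604122 and 408300 RPM of the smooth muscle miRNA cfa-miR-143, against 84748 to 209375 RPM in the others, and 22363 and 5188 RPM of the epithelial miRNA cfa-miR-192, against 77588 to 385247 RPM. In samples 3 and 4 cfa-miR-143 took up 60.4% and 40.8% of reads, against 8.47% to 20.9% in the others. Such a share lowers the RPM values of all other miRNAs there. The part of cfa-miR-143 and cfa-miR-192 in the split was not tested. With all samples the duodenum and jejunum did not differ detectably in any member, with log2 differences of -0.16 (95% interval -0.77 to 0.44), -0.24 (-0.96 to 0.48) and -0.25 (-1.19 to 0.68) for cfa-miR-148a, cfa-miR-148b and cfa-miR-152 and adjusted p from 0.768 to 0.828 by edgeR. Without the 2 samples the signs turned, to 0.24, 0.33 and 0.40, and no member was called.

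**Figure D3:**
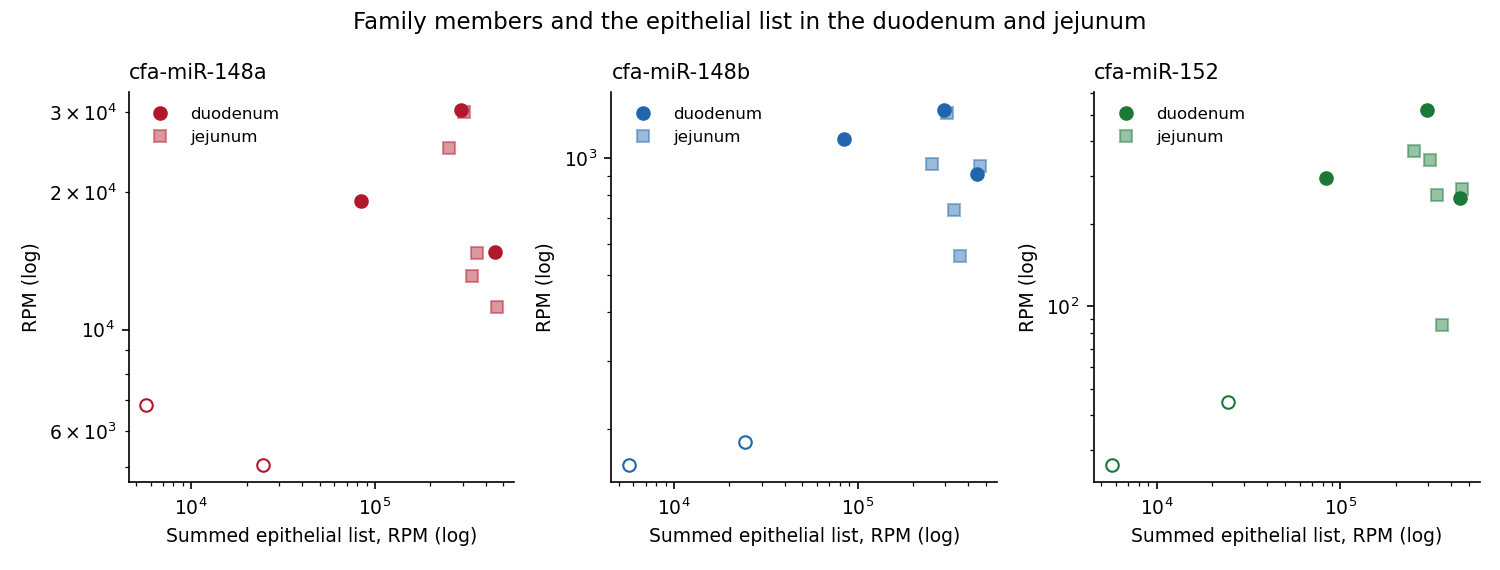
Level of each member in RPM against the summed RPM of 5 epithelial miRNAs (miR-200b, miR-200c, miR-141, miR-192 and miR-194) in the duodenum (circles) and jejunum (squares) samples, both axes on a log scale. The open circles are duodenum samples 3 and 4, with 24507 and 5691 RPM of epithelial miRNAs, which are the lowest of the 10 samples in all 3 members.

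By edgeR with TMM, bone marrow differed from the thymus in all 3 members and from plasma in cfa-miR-148b. Against bone marrow, the thymus held more cfa-miR-148a, by 1.89 ± 0.32 on the log2 scale (edgeR, adjusted p = 1.25e-06; 27.5% of miRNAs called higher), and less cfa-miR-148b, at -2.0 ± 0.38 (adjusted p = 1.56e-05), and cfa-miR-152, at -2.35 ± 0.53 (adjusted p = 2.09e-04; 10.2% called lower). Without the 3 thymus samples low in leukocyte miRNAs, and with the other libraries low in their markers also left out, the differences were 1.40, -2.33 and -3.72, all still called. Plasma held less cfa-miR-148b than bone marrow, at -2.48 ± 0.39 (adjusted p = 2.55e-07; 16.7% of miRNAs called lower). The difference between plasma and bone marrow in cfa-miR-148a depended on the scaling, at 0.29 with TMM (adjusted p = 0.514) and -0.93 with library size alone (adjusted p = 0.0434), and that of cfa-miR-152 was 0.83 (adjusted p = 0.184) and -0.30 in the same fits.

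In the nervous system, the sciatic nerve exceeded the brain in cfa-miR-148a and cfa-miR-152. Nerve samples held 10882 and 11930 RPM of cfa-miR-148a and 48.4 and 37.8 RPM of cfa-miR-152, above all 5 brain samples in both. The part of the muscle, islet and hepatocyte miRNAs of nerve sample 1 in these values was not tested. The log2 differences were 2.83 ± 0.38 (edgeR, adjusted p = 7.42e-09; 17.9% of miRNAs called higher) and 2.30 ± 0.61 (adjusted p = 0.00172), the latter lost without nerve sample 1 (adjusted p = 0.0556) and with library size scaling alone (adjusted p = 0.0814). For cfa-miR-148b the nerve stood at 105 and 171 RPM and the difference from brain was -1.17 (95% interval -2.19 to -0.15, adjusted p = 0.0584). It was called without brain sample 3 or 5 (adjusted p = 0.0259 and 0.0396), with library size scaling (adjusted p = 0.00528) and with DESeq2 (adjusted p = 3.41e-04).

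Heart and skeletal muscle, both striated, did not differ by the test in any member. The log2 difference of cfa-miR-148a was -0.79 (95% interval -1.40 to -0.18, edgeR, adjusted p = 0.0851). It was -0.49 (adjusted p = 0.363) without skeletal muscle sample 4 and the other libraries low in their markers, and it was called without heart sample 3 (adjusted p = 0.0338) and with DESeq2 (-1.14, adjusted p = 0.00169). The intervals were -1.22 to 0.26 for cfa-miR-148b and -2.03 to -0.01 for cfa-miR-152 (adjusted p = 0.452 and 0.194). Lung and kidney were not called either, with intervals of -0.28 to 0.93, -1.36 to 0.09 and -1.07 to 0.80 for the 3 members, although cfa-miR-148a was called higher in lung with library size scaling (1.22, adjusted p = 0.00904), with no filter (0.90, adjusted p = 0.0205) and without kidney sample 2 or 4 (adjusted p = 0.0358 and 0.0251).

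**Figure D4:**
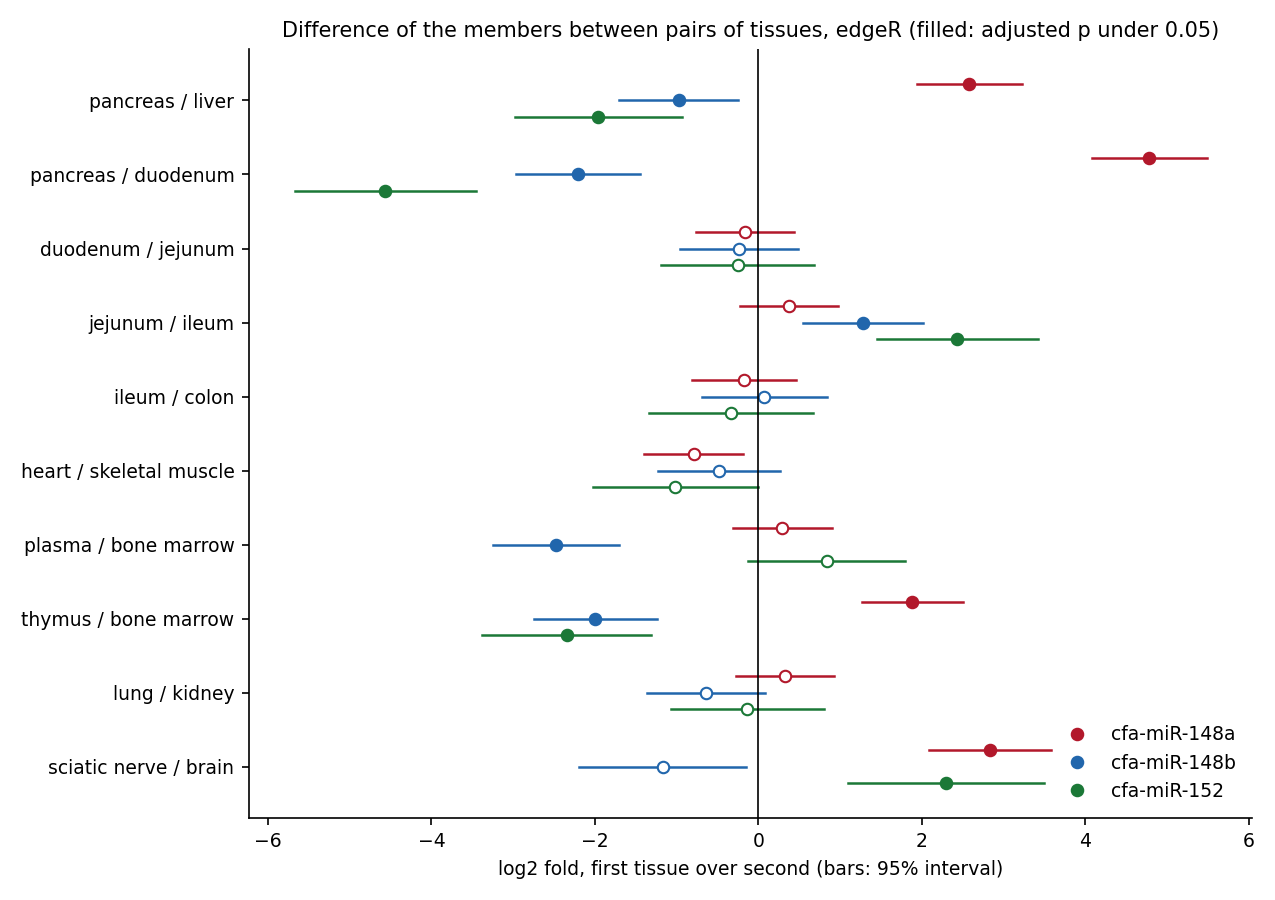
Log2 fold of each member between the 10 tissue pairs by edgeR, first tissue over second, with 95% intervals as bars. Filled points have an adjusted p under 0.05. Pancreas differs from liver and duodenum in opposite directions for cfa-miR-148a (2.58 and 4.78) and cfa-miR-152 (-1.96 and -4.57).

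Each precursor hairpin also yields a miRNA from its opposite arm, usually the less stable strand. The opposite arms were listed under human names, hsa-miR-148a-5p, hsa-miR-148b-5p and hsa-miR-152-5p. In pancreas, hsa-miR-148a-5p held 4092, 3786, 2499, 3677 and 2952 RPM, above all samples of the other tissues (highest, a liver sample with 1385 RPM), and its mean was 12.5 times that of the others (exact rank-sum test, adjusted p = 5.41e-06). It was called in the same 5 tissues and directions as cfa-miR-148a, higher in pancreas and liver and lower in brain, heart and plasma. Of all miRNAs compared, its tissue profile was the most like that of cfa-miR-148a, as given below.

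Of the 4 calls of the opposite arms of the minor members, 1 was shared with the partner. In skeletal muscle, hsa-miR-148b-5p was called lower, as cfa-miR-148b was (mean 9.48 against 31.4 RPM, exact rank-sum test, adjusted p = 0.0468), a call lost without the 8 libraries (adjusted p = 0.0602). In bone marrow, where cfa-miR-148b was called higher, hsa-miR-148b-5p was called lower (mean 6.47 against 31.6 RPM, exact rank-sum test, adjusted p = 0.00770; 13.4% of miRNAs called lower), with 0 to 2 reads in each library. In testis, hsa-miR-152-5p was called higher, at 30.2, 51.1, 17.3, 36.4 and 48.8 RPM and 3.56 times the others (adjusted p = 2.14e-04, same exact test; 14.8% of miRNAs called higher). Samples 2 and 3, low in germ cell miRNAs, were the highest and the lowest of these, and without the 8 libraries the fold was 3.77 (adjusted p = 4.80e-04). In plasma, where cfa-miR-152 was called higher, hsa-miR-152-5p was called lower (adjusted p = 0.00609, same exact test), with 0 to 7 reads in each library.

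The opposite arm relative to its partner varied between tissues. Per 100 reads of cfa-miR-148a there were 0.878 reads of hsa-miR-148a-5p in the median pancreas library (range 0.615 to 1.62) and 3.62 in bone marrow (2.81 to 4.21), without overlap between these tissues, and 2.33 in the median of all libraries. Per 100 reads of cfa-miR-148b, hsa-miR-148b-5p had a median of 0.833 in bone marrow (0 to 1.27) and 38.4 in plasma (31.2 to 55.4). Per 100 reads of cfa-miR-152, hsa-miR-152-5p had a median of 1.75 in plasma (0 to 4.0) and 80.0 in testis (53.3 to 87.5), and it outnumbered cfa-miR-152 in 3 of 76 libraries. These ratios were not tested, and many of those of the minor members rest on few reads.

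**Figure D5:**
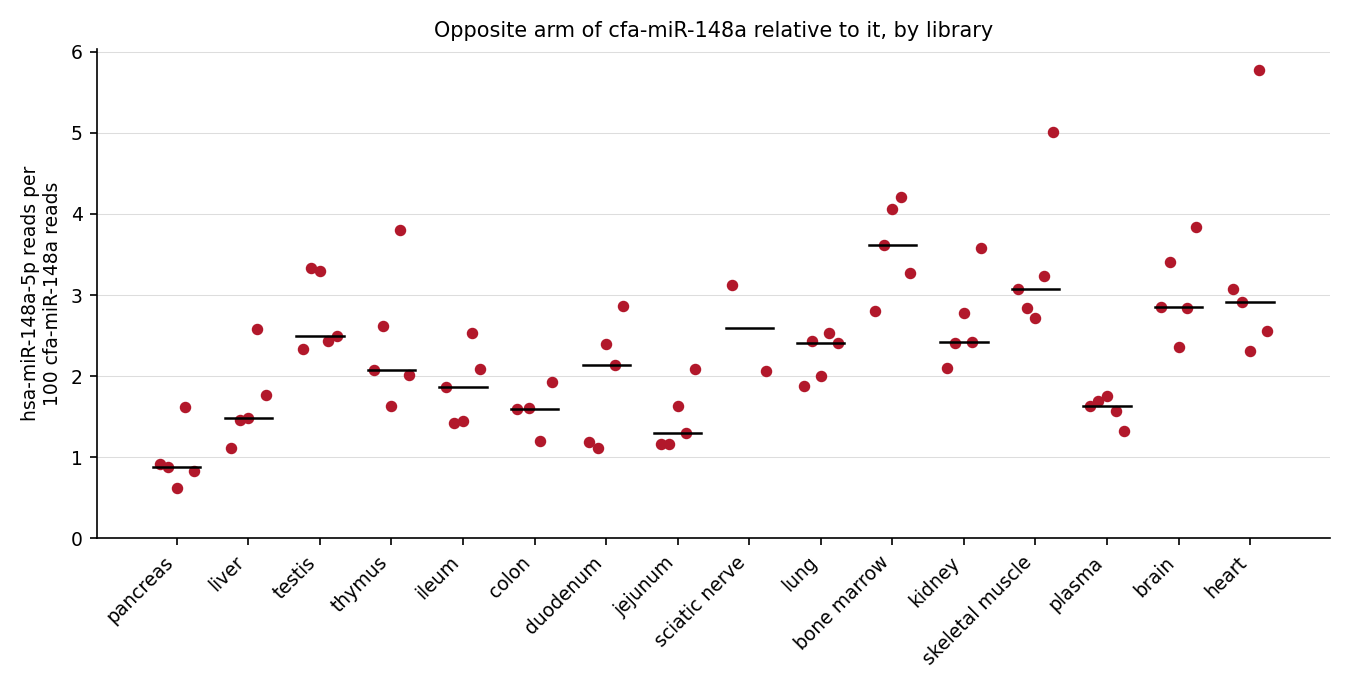
Reads of hsa-miR-148a-5p per 100 reads of cfa-miR-148a in each library, with lines at tissue medians and tissues in the order of their median of cfa-miR-148a. Pancreas has the lowest median, 0.878, and bone marrow the highest, 3.62.

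The tissue profile of cfa-miR-148a had little in common with those of the other members, which were more like each other. Over the 16 tissue medians on the log2(RPM + 1) scale, Pearson's r was 0.02 between cfa-miR-148a and cfa-miR-148b, -0.24 between cfa-miR-148a and cfa-miR-152 and 0.60 between cfa-miR-148b and cfa-miR-152 (Spearman's rho 0.15, -0.05 and 0.54). Without the 8 libraries r was 0.08, -0.16 and 0.63. These are descriptions over 16 tissues whose values share libraries and depth. Among 263 other miRNAs with a tissue median above 100 RPM, the profiles most like that of cfa-miR-148a were those of hsa-miR-148a-5p (r = 0.96), cfa-miR-375, a miRNA of pancreatic islets (r = 0.83), and cfa-miR-216b, a miRNA of pancreatic acinar cells (r = 0.82), all 3 highest in pancreas. Spearman's rho of these 3 was 0.91, 0.67 and 0.65. Outside the pancreas no sample held more than 20.03 RPM of cfa-miR-216b, so its r rests largely on the pancreas. For cfa-miR-148b they were cfa-miR-98 (r = 0.92), cfa-miR-374b (r = 0.75) and cfa-miR-146a (r = 0.73). For cfa-miR-152 they were cfa-miR-18a (r = 0.77), cfa-miR-374b (r = 0.62) and cfa-miR-146a (r = 0.60).

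Other miRNAs of the pancreas and of the family's target pathways were compared as lists of named miRNAs. All 3 acinar miRNAs, cfa-miR-216a, cfa-miR-216b and cfa-miR-217, were called higher in pancreas, with medians of 4143, 5507 and 3543 RPM, against 406344 RPM of cfa-miR-148a. The islet miRNA cfa-miR-375 was also called higher there, with a median of 148274 RPM. Of 3 miRNAs reported to target DNA methyltransferases, cfa-miR-29a and cfa-miR-29c were called higher in pancreas, 2.03 and 4.27 times the other samples. No call was made there for cfa-miR-29b. Of all 650 miRNAs, 7.69% were called higher in pancreas and 6.31% lower. The median log2 fold of the list in pancreas was 1.02, and -1.27 over the 478 miRNAs present in both. Of 5 miRNAs reported to act on cholesterol transport, cfa-miR-33a, cfa-miR-33b, cfa-miR-27b, cfa-miR-128 and cfa-miR-144, none was called in pancreas or liver. In liver 5.38% of all miRNAs were called higher, so no call among 5 miRNAs does not set the list apart. In plasma 3 of the 5 were called higher and cfa-miR-27b lower, where 12.0% of all miRNAs were called higher and 21.4% lower. Among these 3 was cfa-miR-144, which is also in the erythroid list used to check labels. All 3 miRNAs of that list were called higher in plasma.

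Over the 16 tissues, the cholesterol transport list had 7 calls higher and 6 lower in 80 comparisons, the DNA methyltransferase list 4 and 2 in 48, and the acinar list 4 and 2 in 48. All 650 miRNAs together had 7.39% higher and 4.58% lower in 10400 comparisons. Of the lists used to check labels, miR-122 of hepatocytes was called higher in 1 tissue, liver, and lower in 1, plasma, in 16 comparisons. The neural list had 2 higher calls, both in brain, and 4 lower calls in 32 comparisons. The islet miRNA had 1 higher and 2 lower calls in 16. In 64 comparisons the striated muscle list had 6 calls higher and 4 lower. In 48 each, the erythroid list had 6 and 3 and the leukocyte list 6 and 6. In 32 each, the smooth muscle list had 0 and 5, the mesenchymal list 2 and 5 and the germ cell list 3 and 1. The endothelial list had 2 and 1 in 16, and the epithelial list 7 and 10 in 80.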

How the data were processed

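Small RNA of 16 dog tissues was sequenced from TruSeq small RNA libraries. The authors clipped adaptors, aligned reads to CanFam3.1 with the OSA aligner without mismatches, limited reads with many locations, and counted the overlap with dog, rat and human miRNA loci. They deposited a table of counts per miRNA and a table of RPM values, that is counts scaled to 1000000 miRNA reads. RPM recomputed from counts and deposited totals differed by at most a relative 2.89e-09. Reads shared by near-identical miRNAs cannot be assigned with certainty.

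Each tissue was compared with all other samples with an exact rank-sum test of RPM values, taken as two-sided, with Benjamini-Hochberg adjustment over 650 miRNAs within a tissue. Of 16 tissues, 10 pairs were tested with edgeR's quasi-likelihood test (480 miRNAs passing filterByExpr, TMM, Benjamini-Hochberg within a pair), with 95% intervals from the SE. Calls were made at an adjusted p of 0.05. Neighbouring tissues were compared by exact permutation of log2(RPM + 1). Scripts were tested on simulated data. R 4.3.3, edgeR 4.0.16, DESeq2 1.42.0, Python 3.11.15 and scipy 1.17.1 were used.

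Named miRNAs were the members, their opposite arms, for each member the 3 miRNAs with the most similar profile, and lists of cell type and pathway miRNAs. The members and lists were chosen with earlier results of these data known. Other scalings, tests, filters, tissue sets and left-out samples were tried as alternatives. Those without the pancreas, without the reads of cfa-miR-148a, without duodenum samples 3 and 4, and without the 8 libraries low in the miRNAs of their tissue were chosen after seeing the data, as was the 10% limit behind the last. Nothing in the labels links samples to dogs, and p-values measure the spread between these samples. A count of 3 reads corresponded to 0.380 to 19.0 RPM, for counting error only. A sample name in the tables that matched no labelled sample was not used (1 name), and 1 labelled colon sample was not analysed here. Libraries of a tissue differed by more than sampling noise in all 147 pairs (chi-square per degree of freedom at least 10.3).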

Additional observations from a re-analysis of the deposited data

Results flagged for a closer look

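In 4 of 45 combinations of a member and a tissue with 4 or 5 samples, the highest sample lay far from the rest by Dixon's criterion, which chance meets in about 1 of 20. For cfa-miR-148b these were a brain sample with 1477 RPM (the next had 427 RPM) and a lung sample with 829.5 RPM (next 459 RPM). For cfa-miR-152 they were a pancreas sample with 15.1 RPM (next 7.41 RPM) and a thymus sample with 59.1 RPM (next 19.4 RPM). The brain sample, sample 4, was also the highest brain sample of cfa-miR-152, at 35.9 RPM. The thymus sample, sample 5, was 1 of the 3 low in leukocyte miRNAs.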

How the results depend on the processing

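No paired analysis was possible because the labels give no dog number and replicate numbers only name the samples. By edgeR across all tissues, cfa-miR-148a was higher in 4 and lower in 7 tissues, cfa-miR-148b higher in 4 and lower in 5, and cfa-miR-152 lower in 4. By DESeq2 cfa-miR-148a was lower in 7, cfa-miR-148b higher in 5 and lower in 5, and cfa-miR-152 lower in 5. Adjusted over all tissues together, cfa-miR-152 was lower in 1. Without plasma and bone marrow, cfa-miR-148b and cfa-miR-152 were each higher in 1, without the pancreas cfa-miR-148a and cfa-miR-148b in 1, and without the 8 libraries low in their tissue's miRNAs cfa-miR-148b in 1. A tissue that is left out cannot be called, so these counts lose its own calls. Those were bone marrow for cfa-miR-148b, bone marrow and plasma for cfa-miR-152, and pancreas for cfa-miR-148a. The pancreas itself was not called for cfa-miR-148b. The last 3 settings also hold fewer samples, and the cause of the other shifts was not tested.

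Of the pairs, signs turned with library size scaling for cfa-miR-148a between ileum and colon (0.018) and plasma and bone marrow (-0.93), for cfa-miR-152 between plasma and bone marrow (-0.30) and lung and kidney (0.76), and for cfa-miR-148b between lung and kidney (0.35). With no filter they turned for cfa-miR-148a between plasma and bone marrow (-0.14) and cfa-miR-152 between lung and kidney (0.40), and with DESeq2 for cfa-miR-148b between ileum and colon (-0.026). Between duodenum and jejunum the 3 members stood at 0.24, 0.33 and 0.40 without duodenum samples 3 and 4, and at 0.059, 0.17 and 0.23 without the 8 libraries.

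With 1 sample left out, 2318 values stayed as they were, 56 lost a call or fell under the ratio of 5, 5 gained a call, 16 turned sign and 6 counts moved by over 1.5 times. The ratio of the pancreas median of cfa-miR-148a to the highest other sample ran from 4.81 to 5.29, the jejunum log2 fold of cfa-miR-152 from 1.82 to 2.20, the tissues higher in cfa-miR-148b from 1 to 2 and those lower in cfa-miR-152 from 1 to 2. Signs varied for cfa-miR-148a between plasma and bone marrow (-0.25 to 0.31), cfa-miR-148b between ileum and colon (-0.075 to 0.17), and cfa-miR-152 between lung and kidney (-0.26 to 0.50) and duodenum and jejunum (-0.57 to 0.0024). With 1 sciatic nerve sample left, that sample was assumed to vary like the other groups. Depth limits cfa-miR-152 most, which rested on 5 to 22 reads in pancreas.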
